A study of Drosophila melanogaster with 2 samples.

Results

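Distal intergenic regions are bound stretches that lie inside no protein-coding gene and more than 5000 bp from the nearest start of a protein-coding transcript. They were taken, by the position of their summits alone, from the stricter list of peaks bound by the transcription factor Arrowhead (Awh) in Drosophila melanogaster embryos. After overlapping peaks on chromosomes 2L, 2R, 3L, 3R, 4 and X had been merged, 518 of 4781 regions met the rule. Whole embryos of the strain Awh-GFP, 0 to 24 h old, expressed Awh fused to enhanced green fluorescent protein, and the bound DNA was recovered by chromatin immunoprecipitation and sequenced (ChIP-seq). A description in the labels names an antibody against green fluorescent protein, whereas the antibody field names Awh. The series holds 2 biological replicates of this single group, from separate biosamples, and a possible control named in the labels was not used here. The promoter that drives the fusion was not given, nor whether the embryos kept their own Awh gene. Peak lists of this kind carry no read totals, so the depth behind each signal value is unknown.

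Awh is a LIM-homeodomain protein, a class that pairs LIM domains for contacts with other proteins with a homeodomain that recognises AT-rich DNA with the core TAATTA. It is known for its role in the precursors of the adult abdominal epidermis and of the salivary gland. In flies, regulatory DNA of developmental genes often lies far from the gene in long stretches without coding sequence, where enhancers, short clusters of binding sites, act on a promoter from a distance. A bound region in such a stretch does not say which gene it acts on, and the genes named here are those with the nearest start.

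Sequences around the summits of 7 distal regions are shown first, to let the sites counted further on be seen in place. The Glut3, CG4004, CG4213, CG11629, CG42713 and Dr regions are among the strongest. The noc region is the strongest with the hexamer ACACTG among the regions considered for display. A chromosome arm, named below, was left out of this choice. Each line gives 121 bases centred on the summit, on the + strand of the dm6 build. Capitals mark TAATTA as well as GAGAG, the word ACAGTG with its relative ACACTG, on either strand, so that CTCTC is GAGAG read on the other strand.
Glut3 region, chr3R:16798581-16798701: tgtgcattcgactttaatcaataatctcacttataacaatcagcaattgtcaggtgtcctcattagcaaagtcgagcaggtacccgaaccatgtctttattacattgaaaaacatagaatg
CG4004 region, chrX:12752300-12752420: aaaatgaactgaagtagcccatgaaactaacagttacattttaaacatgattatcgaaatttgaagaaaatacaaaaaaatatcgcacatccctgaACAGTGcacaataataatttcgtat
CG4213 region, chr2L:392700-392820: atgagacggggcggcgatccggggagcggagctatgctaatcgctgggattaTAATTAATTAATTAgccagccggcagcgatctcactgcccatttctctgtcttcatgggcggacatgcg
CG11629 region, chr2L:21867178-21867298: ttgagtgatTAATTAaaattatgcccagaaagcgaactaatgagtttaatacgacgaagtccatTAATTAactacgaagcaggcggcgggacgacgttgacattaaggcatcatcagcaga
CG42713 region, chr2L:8879357-8879477: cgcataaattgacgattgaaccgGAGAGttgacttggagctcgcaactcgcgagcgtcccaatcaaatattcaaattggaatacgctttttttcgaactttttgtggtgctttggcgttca
Dr region, chr3R:29567376-29567496: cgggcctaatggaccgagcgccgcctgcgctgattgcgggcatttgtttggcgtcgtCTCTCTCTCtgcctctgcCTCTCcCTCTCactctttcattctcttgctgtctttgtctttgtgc
noc region, chr2L:14502728-14502848: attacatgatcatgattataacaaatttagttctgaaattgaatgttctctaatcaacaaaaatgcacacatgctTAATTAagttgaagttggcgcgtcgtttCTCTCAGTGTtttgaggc

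The CG4213 region held 3 overlapping copies of TAATTA next to its summit, and the CG11629 region held 2 separate copies. In the Dr region the GAGAG letters came from a CT-rich run. The Glut3 window held none of the marked sites. Nor did the windows of the eEF1gamma, CG13898 and CG44362 regions and of a second CG4004 region, with a signal of 449. Those regions are also among the strongest outside 2R and are not shown, so the windows shown favour those with a site. Regions on 2R were not considered for display, and whether a stronger region there holds ACACTG was not examined.

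Eligible sequence, meaning every base that the rule would accept, amounted to 26 Mb of the 6 chromosomes. Distal regions occurred at 19.9 per Mb there, against 39.5 per Mb over the rest of these chromosomes, a ratio of 0.504 (exact 2-sided binomial test, p = 6.25e-58). Intergenic sequence 501 to 5000 bp from a start held 36.6 regions per Mb, and introns beyond 5000 bp held 27.1 per Mb. Much of the eligible sequence is repetitive, and reads cannot be placed there with certainty. Counted over unique sequence alone, where the 25-mers occur a single time in the 6 chromosomes, the densities were 30.7 per Mb for distal regions and 42.9 per Mb elsewhere, a ratio of 0.717 (exact binomial test, p = 1.05e-13). This and the other tests over regions treat regions as independent, which neighbours in a gap are not, and they describe these lists and not the spread between embryo collections.

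The nearest start lay a median of 11110 bp from the summit, with quartiles of 7744 and 16784 bp. Between 5 and 10 kb from a start there were 225 regions at 29.2 per Mb, and between 10 and 20 kb there were 210 at 29.0 per Mb. Density was lower farther out, at 13.4 per Mb between 20 and 50 kb, with 72 regions, and 1.94 per Mb beyond 50 kb, with 11 regions. Unique sequence made up 86.8% of the nearest class and 20.1% of the farthest, and per Mb of unique sequence the classes held 33.6, 36.4, 22.3 and 9.66 regions. Strength did not follow distance in the same way: median signals, in the authors' units, were 102, 106, 99.4 and 104 from the nearest class to the farthest.

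The distance limit cut through a continuous range. Just inside it, a region near Or65a, an odorant receptor gene, lay 5012 bp away. Its signal was 69.3 in the joint list, 34.9 in replicate 1 and 35.3 in replicate 2. Just outside it, a region near Rubicon lay 4975 bp away, with signals of 84.3, 38.8 and 49.2. The region farthest from any start lay 68700 bp from that of CG12362, inside the noncoding gene lncRNA:CR46006, with signals of 88.4, 36.6 and 48.8. All 3 were weak regions, below the list's median signal of 105.

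**Figure D1:**
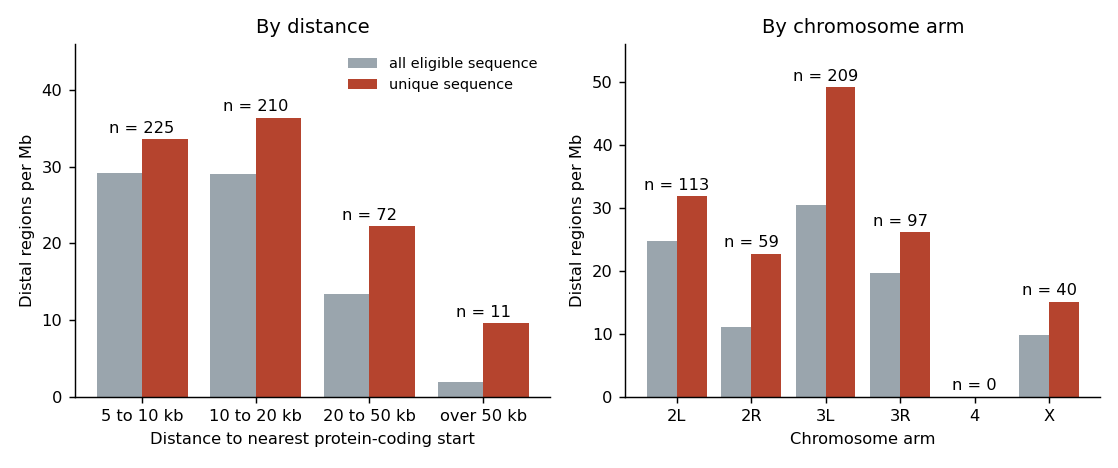
Distal regions per Mb (y axis) by distance to the nearest protein-coding start (left) and by chromosome arm (right), over all eligible sequence (grey) and over unique sequence (red). Numbers above the bars count regions, and no replicate error exists for these counts. Density was 29.2 and 29.0 per Mb in the classes up to 20 kb and 1.94 per Mb beyond 50 kb, and arm 3L held 30.5 per Mb.

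Distal regions were unevenly spread over the chromosome arms. Arm 3L held 209 of them, or 40.3%, with 26.3% of the eligible sequence, 1.53 times its share (exact binomial test, adjusted p = 2.31e-11 over 6 chromosomes). Arm 2L held 113, at 1.24 times its share (adjusted p = 0.0196 by the same exact test), and arm 3R held 97, at 0.986 times (adjusted p = 0.911). Fewer than their share lay on 2R, with 59 at 0.553 times, and on X, with 40 at 0.490 times (exact binomial test, adjusted p = 1.30e-07 for both). Chromosome 4 held none in 0.186 Mb of eligible sequence (exact binomial test, adjusted p = 0.0711). Per Mb of unique sequence the excess on 3L and the deficits on 2R and X remained past the threshold (exact binomial test, adjusted p = 3.49e-13, 0.0209 and 1.94e-07), and that on 2L did not (adjusted p = 0.667).

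By count of regions, the 3L share set distal regions apart from other classes of region. Among intergenic regions 501 to 5000 bp from a start, 22.6% lay on 3L (Fisher's exact test, adjusted p = 2.85e-09). Among regions in introns beyond 5000 bp it was 18.5% (adjusted p = 1.60e-17), and among all other regions 21.3% (Fisher's exact test, adjusted p = 5.03e-19). These tests leave out how much sequence each class has on 3L. Per Mb of their own sequence, distal regions numbered 30.5 on 3L and 19.9 over the 6 chromosomes. The values were 40.3 and 36.6 for near intergenic regions, 25 and 27.1 for distant introns and 42.7 and 39.5 for all others. The gaps in which distal regions lay were also fuller on 3L. Of 303 gaps between protein-coding genes with eligible sequence on 3L, 63 (20.8%) held a distal region, against 16.7% on 2L, 16.4% on 3R, 14.8% on 2R and 10.6% on X. Each occupied gap held a mean of 3.32 distal regions on 3L, 2.35 on 2L and between 1.55 and 1.67 on 2R, 3R and X, values that were not tested. With a single region kept per gap, 3L was at its share of the sequence (log2 ratio 0.04, exact binomial test, adjusted p = 0.766). None of the 6 chromosomes passed the same exact test (adjusted p from 0.114 to 0.766). That setting counts occupied gaps against sequence, and it removes the number of regions within a gap by construction. By gaps, 63 of the 232 occupied ones lay on 3L, which had 303 of all 1460, and this was not tested.

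Clusters within gaps were common over the whole set. Of 1460 gaps with eligible sequence, 232 (15.9%) held a distal region, 131 held a single one and 101 held 2 or more. The 28 gaps with 5 or more held 191 regions, 36.9% of the total, and 18 of these gaps lay on 3L. Neighbouring distal summits in a gap were a median of 2138 bp apart (286 spacings).

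The gap of 30.9 kb on one side of Awh itself, up to Fie at chr3L:3861693-3892573, held 14 distal regions. Their signals had a median of 94.6 and a highest value of 181, and 3 of the 14 were in both replicates' own lists. The strongest lay 16422 bp from the Awh start, with 90.4 in replicate 1 and 88.0 in replicate 2. Of the others, the signal nearest to it was 130, at a region 8533 bp from the Fie start with 54.9 in replicate 1 and 77.1 in replicate 2. In each replicate alone the list was shorter here, with 7 of the 14 regions in the list of replicate 1 and 6 in that of replicate 2. The strain carries a construct for Awh, and whether that construct includes DNA of this gap was not given.

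Also on 3L, 11 regions lay between CG44362 and CG7560, with signals from 67.3 to 368, and 11 between NijA and CG43245, with signals from 64.1 to 208. NijA encodes a ninjurin, a cell-surface protein. On 3R, 8 regions lay between plh and corto, with signals from 80.3 to 331 and a median of 151. Corto is a chromatin protein that acts with Polycomb and trithorax group proteins. In the first of these gaps 6 of 11 regions were in both replicates' own lists, in the second 4 of 11, and in the third 4 of 8.

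**Figure D2:**
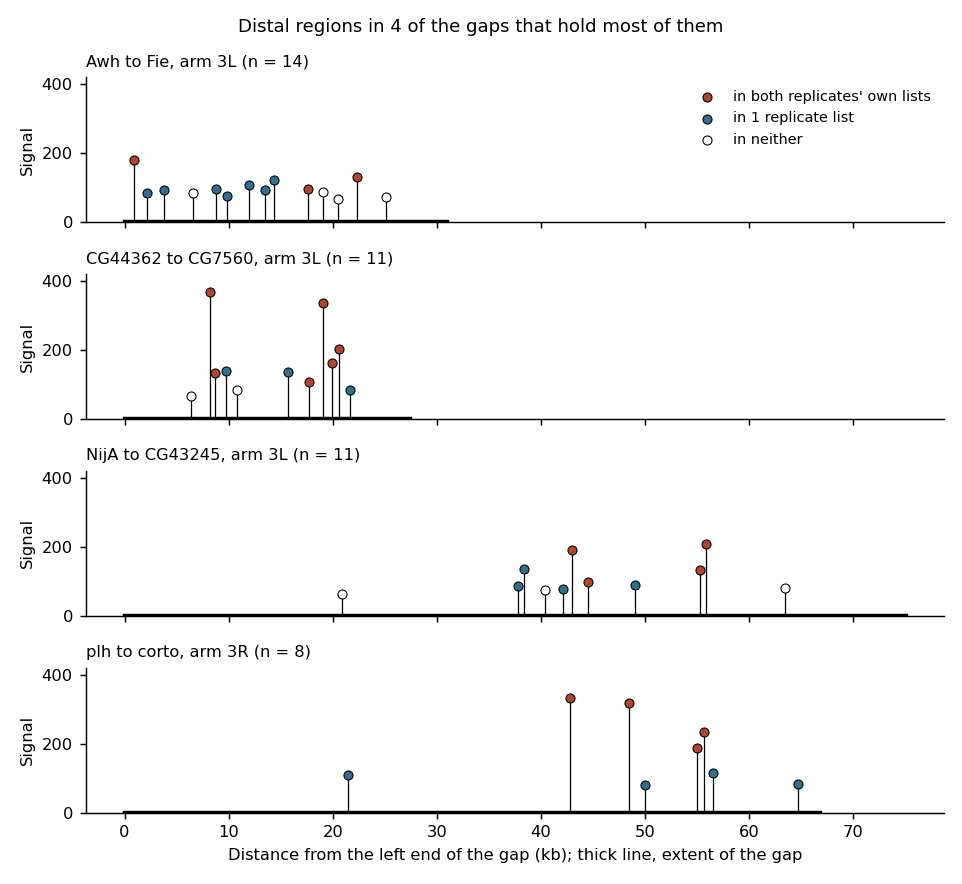
Signal in the joint list (y axis, authors' units) of each distal region against its distance from the left end of the gap (x axis, kb) in 4 of the gaps with the most regions. Each stem is a region, and its colour shows whether it was in both, 1 or neither of the replicates' own thresholded lists. In the gap beside Awh no region reached 200, whereas the highest in the gap between CG44362 and CG7560 was 368.

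By nearest start, CG43245 had 12 distal regions, CG6163 and Fie 10 each, vvl and ems 8 each, and corto and Reg-2 7 each. The vvl gene encodes a POU-homeodomain factor of the tracheae and nervous system, and ems a homeodomain factor of the head. The 8 regions of vvl lay 10517 to 53576 bp from its start, with signals from 65.1 to 308, and those of ems lay 5721 to 20127 bp away, with signals from 69.6 to 207. Of 2138 genes that are nearest to some eligible sequence, 268 (12.5%) had a distal region, and 159 of these had a single one.

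Few genes with eligible sequence had a bound promoter (180, or 8.42%), whether or not they had a distal region. Of the 268 genes with a distal region, 31 (11.6%) also had a region within 500 bp of a start. This compares with 149 of the 1870 genes (7.97%) with eligible sequence and no distal region, and the difference was not tested. For 141 of the 268, the distal regions were their sole regions in the list. Genes closest to distal regions were counted by their start, so a region may act on another gene.

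Distal regions were about as strong as the other regions. Their median signal was 104, with quartiles of 80.3 and 147 and a range of 50.1 to 1132. By replicate the median was 50.1 in replicate 1 (515 regions with a peak) and 52.5 in replicate 2 (514 regions with a peak). Of the whole list, 50% exceeded the list's median signal by construction, and of the distal regions 252, or 48.6%, did (95% Wilson interval 44.4 to 52.9%). The share was 47.9% for intergenic regions 501 to 5000 bp from a start, 44.9% for introns beyond 5000 bp and 50.2% for all others (Fisher's exact test, adjusted p = 0.852, 0.532 and 0.818). The 95% intervals of these differences, distal minus the other class, were -5.31 to 6.86, -1.71 to 9.27 and -6.06 to 3.05 percentage points.

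Replicate support was also close to that of near intergenic regions and distant introns. It was lower than that of all others, short of the threshold after adjustment. Of the distal regions, 200 (38.6%) overlapped a region of both replicates' own thresholded lists, 58 of replicate 1 alone, 114 of replicate 2 alone and 146 (28.2%) of neither. Over the whole list 43.3% were in both. The share in both was 41.3% for intergenic regions closer to starts, 37.9% for distant introns and 43.9% for all others (Fisher's exact test, adjusted p = 0.614, 0.817 and 0.0644). The last difference, -5.30 percentage points, passed the threshold under several alternatives, among them the broader list (adjusted p = 0.0485 by the same exact test). Signals of the same region in both replicates differed little on average, with a median log2 ratio of replicate 1 to replicate 2 of -0.05 (SD 0.50, n = 511 regions).

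**Figure D3:**
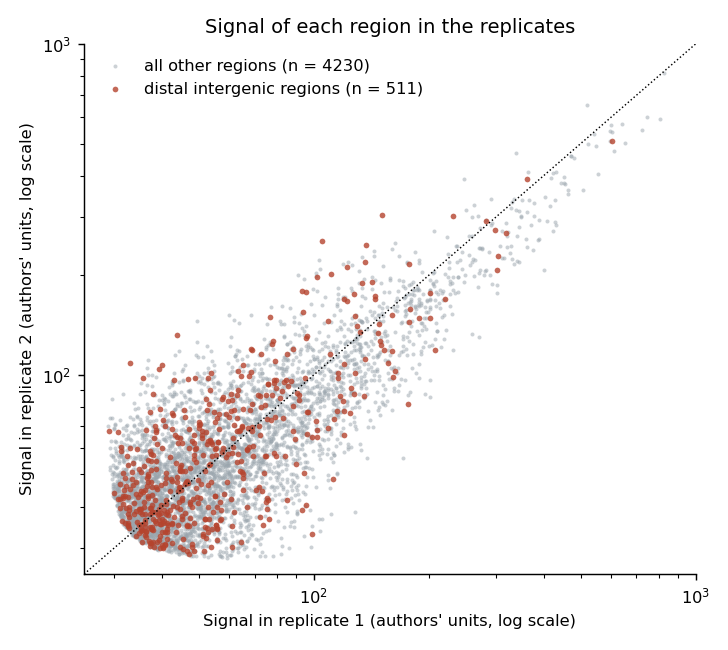
Signal of each region in replicate 1 (x axis) and replicate 2 (y axis), both on log scales in the authors' units. Distal regions (red, 511 with a peak in both) lie within the cloud of all other regions (grey, 4230), and the strongest, near CG13323, reached 605 and 509. The dotted line marks equal signals.

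Of the 100 strongest regions of the list, 7 were distal, and of the 500 strongest, 46, beside 518 of all 4781 regions. The strongest of all distal regions, at rank 11 of the list, lay on 2R, in the gap of 36.8 kb between Su(z)2, a Polycomb-group gene, and CG13323. It was 11909 bp from the CG13323 start and had signals of 1132 in the joint list, 605 in replicate 1 and 509 in replicate 2. The next lay 5725 bp from eEF1gamma, which encodes a subunit of translation elongation factor 1, with signals of 736, 361 and 390. Both replicates placed these regions far above the distal medians of 50.1 and 52.5.

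The third strongest lay between Glut3, of the sugar transporter family, and abd-A, the Hox gene of the abdomen, with signals of 621 in the joint list, 318 in replicate 1 and 269 in replicate 2. It was 10330 bp from the Glut3 start. A region near RYBP, a partner of Polycomb-group proteins, had signals of 577, 283 and 292, and a region near slbo, a C/EBP transcription factor known from border cell migration, had 574, 299 and 274. These 3 regions were alike in strength in both replicates.

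A pair of regions near CG4004 on X followed, with joint signals of 539 and 449, of 303 and 301 in replicate 1 and of 228 and 207 in replicate 2. They lay in noncoding genes, lncRNA:CR44619 and lncRNA:Vinr. Both were thus stronger in replicate 1. The CG4213 region, in the gap between al, the homeobox gene aristaless, and CG4213, had signals of 534, 231 and 302, and a second region of that gap had 334, 122 and 212.

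Among the remaining regions of the 20 strongest that were in both replicates' own lists, the CG42713 region had signals of 450, 151 and 304, and the Dr region 428, 178 and 217. Dr encodes a homeodomain factor of the dorsal neurectoderm and muscle. The region between lbl and lbe, the ladybird homeobox genes of heart and muscle, had 365, 105 and 254. The CG11629 region lay 31051 bp from a start in the gap beside tsh, a zinc-finger gene of the trunk, with 384, 137 and 247. Each of these 4 was stronger in replicate 2.

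Regions near chinmo and noc, both zinc-finger genes, were the reverse, with 179 and 158 for chinmo and 208 and 119 for noc in replicates 1 and 2. The other 5 of the 20 lay near CG13898, CG44362, CG13896, CG10750 and CG7560, with joint signals from 337 to 383. Over the 20 regions the ratio of replicate 1 to replicate 2 ran from 0.415 near lbe to 1.75 near noc. Of the 20, 5 lay upstream of the nearest start and 5 lay in a noncoding gene. Over all 518 distal regions 51.2% lay upstream and 16% lay in a noncoding gene. These counts of the 20 were not tested.

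Genes of developmental regulators were often the nearest. In lists drawn up with earlier results of these data known, 17 of 50 homeobox genes outside the LIM class that had eligible sequence had a distal region (34.0%), as did 17 of 48 other developmental transcription factors (35.4%) and 12 of 27 signalling genes (44.4%), beside the 12.5% of all genes. Per Mb of eligible sequence these lists held 63.0, 48.6 and 71.1 regions, beside 19.9 for all genes. These are counts, and no list was tested. Developmental genes also have long intergenic stretches, which the count of regions per Mb takes into account and the count of genes does not.

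Among homeobox genes, Dr had a region of signal 428, lbe of 365, vvl of 308 and ems of 207. In replicates 1 and 2 the vvl region had 122 and 167, and the ems region 72.5 and 116. Both were weaker in replicate 1, as those of Dr and lbe were. Of the LIM-homeodomain genes and their cofactors, 2 of 6 had a distal region, namely Awh with 4 regions and tup, the islet homologue, with 2. The strongest tup region reached 103, with 53.5 and 53.8 in the replicates.

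Of the other transcription factor genes, chinmo had a region of 354, D of 241, sob of 220 and mid of 153. D, or Dichaete, is a Sox factor, sob an odd-skipped family zinc finger and mid a T-box factor. The D region had 93.4 in replicate 1 and 155 in replicate 2, and the sob region 119 and 83.1. Among signalling genes the strongest were at pyr, an FGF ligand gene (313, with 127 and 175 in replicates 1 and 2), ptc, the Hedgehog receptor gene (245, with 120 and 108), Ser, a Notch ligand gene (178, with 85.3 and 92.8), and Wnt10, a Wnt ligand gene (148, with 68.8 and 69.4). At ptc the signal was higher in replicate 1, and at the other 3 it was higher in replicate 2.

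By share of genes, lists for differentiated functions stood nearer to all genes or below. Of axon guidance and cell adhesion genes 4 of 49 (8.16%) had a distal region, the strongest at 18w, which encodes a Toll family receptor, with 274 in the joint list and 153 and 119 in the replicates. The other 3, at klg, caps and Toll-6, had 101, 84.8 and 83.2. Of chemosensory receptor and odorant-binding genes 8 of 56 (14.3%) had one, led by Or67d with 152 and Obp56i with 124. Cuticle protein genes had 2 of 13 (15.4%), Cpr35B with 127 and Cpr62Ba with 106. Per Mb of eligible sequence the axon guidance and adhesion list held 9.32 regions, the chemosensory list 20 and the cuticle list 74.1, the last from 2 regions in 0.0270 Mb, so that on this measure the cuticle genes stood above the developmental lists. No distal region had its nearest start at any of 11 cytoplasmic or 2 mitochondrial ribosomal protein genes or at 2 nuclear receptor and ecdysone response genes with eligible sequence.

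**Figure D4:**
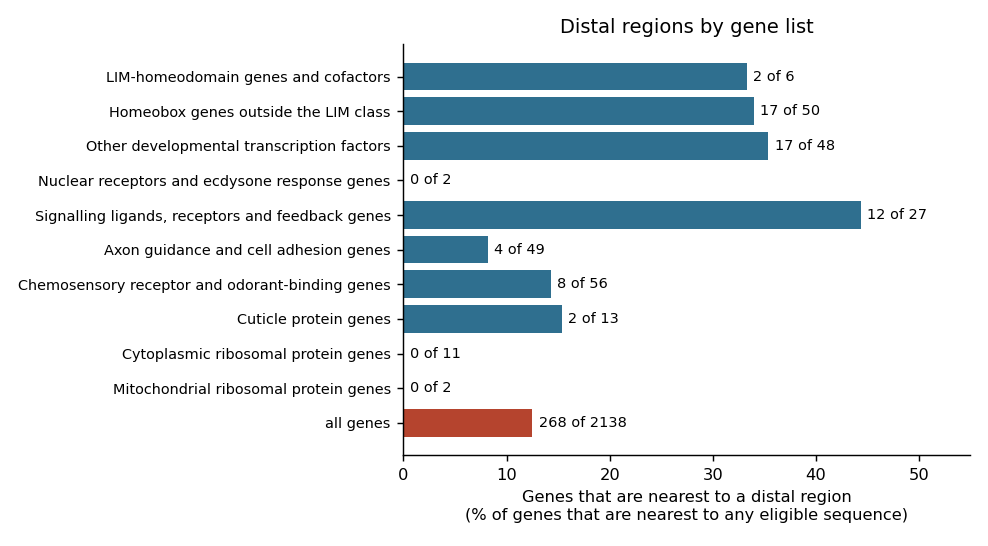
Percentage of genes of each list that are nearest to a distal region (x axis), among its genes that are nearest to any eligible sequence, with both counts beside each bar. The lists of transcription factor and signalling genes lie between 33.3 and 44.4%, beside 12.5% for all genes (red), and lists with 2 to 13 genes rest on few counts.

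The same held by gap. Of 154 gaps flanked by a gene of the 3 transcription factor lists, 47 (30.5%) held a distal region, at 49.0 regions per Mb, against 185 of 1306 other gaps (14.2%) at 16.4 per Mb. The 47 gaps held 137 regions, 26.4% of the distal set. Gaps flanked by a listed signalling gene held one in 15 of 35 cases (42.9%), at 61.2 per Mb. Most distal regions thus lay in gaps flanked by no listed transcription factor gene.

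Noncoding genes held more distal summits than their share of the sequence. A summit lay inside one for 83 regions (16.0%, 95% Wilson interval 13.1 to 19.4%), where noncoding genes cover 6.89% of the eligible sequence (ratio 2.32, exact binomial test, p = 1.01e-12), and over unique sequence the ratio was 1.86 (p = 5.82e-08 by the same exact test). Within 500 bp of a noncoding transcript start lay 37 summits (7.14%), against 2.89% of the sequence (ratio 2.47, exact binomial test, p = 9.63e-07). Long noncoding RNA genes held 81 of the 83 summits, in 50 genes, and small nuclear RNA genes held the other 2.

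Several noncoding genes held more than 1 summit, among them lncRNA:CR46006 on 3L with 7, up to a signal of 194. On 2L, lncRNA:CR44917 held 4, up to 384, and on X lncRNA:CR32773 held 4, up to 277. The bithoraxoid gene, lncRNA:bxd, a noncoding gene of the bithorax Hox complex, held 2 on 3R, up to 84.9. The strongest summit in a noncoding gene was that of slbo, with 574, in lncRNA:CR44810.

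Transposable elements were all but empty of distal regions, with 1 summit of 518 (0.193%) inside an annotated element although such elements cover 12.9% of the eligible sequence (exact binomial test, p = 1.03e-29). Over unique sequence, of which they cover 3.70%, the difference was also past the threshold (exact binomial test, p = 1.37e-07). Repeated sequence made up at least 50% of the window for a single distal region (0.193%), as for 1 of 518 intergenic regions closer to starts (Fisher's exact test, adjusted p = 1). Peaks can be called only where reads are placed, so the lists say little of binding in repeats.

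Summits lay upstream of the nearest start for 265 regions (51.2%, 95% Wilson interval 46.9 to 55.4%), where 53.5% of the eligible sequence is upstream (exact binomial test, p = 0.291). In the stronger 50% of the list the difference from the share of sequence was -6.65 percentage points, past the threshold (exact binomial test, p = 0.0371).

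Site content was read within 100 bp of each summit, on both strands, and compared with an equally wide window centred 1000 bp off to a randomly drawn side. Of 20 fixed sites, GAGAG, the site of GAGA factor, was the one that passed. It occurred in 137 distal windows (26.4%, 95% Wilson interval 22.8 to 30.4%) and in 18% of the flanks, with 111 regions holding it at the summit alone and 67 in the flank alone (exact sign test, adjusted p = 0.0241 over 20 sites). Over 81977 eligible windows of the same width it occurred in 20.8%. The call was lost with the flank on the other side, 20.5% of which held GAGAG (exact sign test, adjusted p = 0.255), and without the gap beside Awh (adjusted p = 0.0535 by the same exact test). Nor was the site gathered at the summit: within 60 bp there were 36.4 copies per 1000 regions per 20 bp, and 37.6 at 160 to 300 bp. Its excess did not pass a test against that of all other regions, of which 26.4% held it at the summit (Fisher's exact test, adjusted p = 0.226). With only the strongest region kept per gap, the GAGAG excess over flanks was 16.8 percentage points (exact sign test, adjusted p = 8.64e-04). The excess then passed against all others (Fisher's exact test, adjusted p = 0.02). It did not pass against near intergenic regions or distant introns (adjusted p = 0.225 and 0.0625 by the same exact test).

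TAATTA, the core site of the protein's class, occurred in 113 distal windows (21.8%, 95% Wilson interval 18.5 to 25.6%) and in 17.6% of the flanks. It was at the summit alone in 88 regions and in the flank alone in 66 (exact sign test, adjusted p = 0.361). This comparison turned on the side of the flank, since 13.3% of the flanks on the other side held the site, with 95 regions against 51 (exact sign test, adjusted p = 0.00679). Of the eligible windows 14.8% held TAATTA, also when windows of the same GC content were taken. With the list of replicate 2 alone the difference was 9.90 percentage points and past the threshold (exact sign test, adjusted p = 0.0148), and with that of replicate 1 alone it was 7.96 points.

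By position TAATTA was densest at the summit, and this holds without a flank. Within 60 bp there were 32.2 copies per 1000 distal regions per 20 bp, against 15.2 at 160 to 300 bp, and for all other regions the values were 28.8 and 14.0. In the 20 bp before the summit there were 54.1 copies per 1000 distal regions and in the 20 bp behind it 40.5. An outlying bin 260 to 280 bp before the summit held 34.7. The excess of TAATTA at summits over flanks did not pass a test against near intergenic regions, distant introns or all others (Fisher's exact test, adjusted p = 0.512, 0.727 and 0.336).

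**Figure D5:**
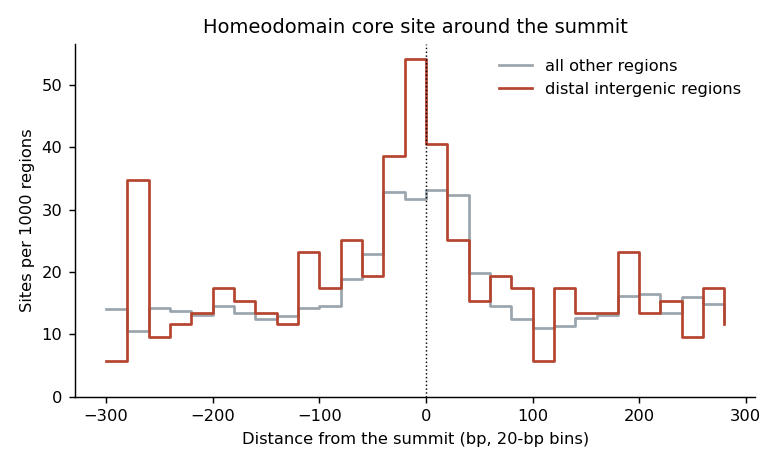
Copies of the homeodomain core site per 1000 regions (y axis) in 20-bp bins by distance from the summit (x axis, bp), for distal regions (red) and all other regions (grey). Both lines peak within 60 bp of the summit, at a mean of 32.2 copies per bin for distal regions and 28.8 for the others.

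Within the distal set TAATTA was found at the summit of 26% of the 200 regions in both replicates' own lists (95% Wilson interval 20.4 to 32.5%) and of 16.4% of the 146 in neither (11.3 to 23.3%). By quartile of the signal, from weakest to strongest, the shares were 20.8, 17.8, 22.5 and 26.2%, with intervals that overlap. By distance they were 23.1% up to 10 kb, 22.4% up to 20 kb and 16.9% beyond. The flanks of these distance classes held it in 21.8, 16.2 and 9.64%, so the lower summit share beyond 20 kb went with a lower flank share. In gaps with 5 or more distal regions 17.8% of summits and 20.4% of flanks held TAATTA, and in gaps with 1 it was 19.8 and 17.6%. These splits were not tested.

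A scan of all hexamers, both strands together, found 6 (0.288%) more frequent at distal summits than beside them and 1 (0.0481%) less frequent (exact sign test, Benjamini-Hochberg adjusted), with 175 at an unadjusted p under 0.05. The clearest was ACACTG, with 13.9% of summits holding it beside 5.02% of flanks (exact sign test, adjusted p = 0.00347). TGCACA followed with 18.9 and 9.46%, TAATGA with 26.8 and 16.2%, and AGTGTA with 15.4 and 7.34% (exact sign test, adjusted p = 0.0162 for each). GAGAGA had 12.5 and 5.41% and CTCTCA 10.8 and 4.44% (adjusted p = 0.0334 for both by the same exact test). ATCCTC was less frequent, in 2.12 and 7.72% (exact sign test, adjusted p = 0.0162). All 7 were also called in the same direction in the other 4263 regions, where 296 hexamers were higher and 495 lower. AATTAA, at 44.0 against 33.0%, with TAATCA, at 20.3 against 12%, did not pass (exact sign test, adjusted p = 0.0693 for both), nor did 7 further hexamers lower at summits, from AAGGAG (adjusted p = 0.0693) to GAAGGA (adjusted p = 0.178). The calls were few and unsteady, with 1 higher hexamer from either replicate's list alone and 0 with a single region per gap.

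ACACTG with AGTGTA can overlap on opposite strands, and both were placed unevenly about the summit. At 50 to 110 bp, read on its own strand, ACACTG lay before the summit alone in 47 distal regions and behind it alone in 8. AGTGTA lay before it alone in 7 and behind it alone in 51. Over all other regions these counts were 328 against 147 and 107 against 320. Both words were picked for this count after the scan of the same regions, so no test of it is given. ACAGTG is a word whose same asymmetry had already been seen over the whole list, which includes the distal regions. Its tests here are therefore descriptive and give no independent support. For ACAGTG the distal counts were 32 before and 18 behind (exact sign test, p = 0.0649). All other regions had 395 and 144, and this difference did not pass (Fisher's exact test, p = 0.185). Distant introns had 71 and 18 (Fisher's exact test, unadjusted p = 0.0465), and intergenic regions closer to starts had 27 and 16.

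In base composition distal summits differed from the rest. This contrast was added after seeing the data, so its p-values are not those of a planned test. Distal summits had a mean GC content of 41.0% and their flanks 40.5%, with less GC at the summit in 244 regions and more in 264 (exact sign test, p = 0.399). All other regions were AT-richer at the summit, with 39.3% against 42.2% in the flank and less GC at the summit in 2500 regions against more in 1693. The share with less GC at the summit was 48.0% for distal regions and 59.6% for all others (Fisher's exact test, adjusted p = 2.04e-06 over 3 comparisons). It was 58.1% for intergenic regions closer to starts (adjusted p = 0.00208) and 55.4% for distant introns (adjusted p = 0.0106, both by Fisher's exact test).

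Some hexamers of A and T differed between distal and other regions, and others did not. TTTAAA, a word of the same composition as TAATTA included as a control, was in 18.1% of distal summit windows and 23.4% of their flanks, but in 25.1% and 17.5% for all other regions (Fisher's exact test of the difference, adjusted p = 0.00359 over all hexamers). AAATAA, in 37.5 and 42.5% against 44.6 and 34.7%, differed likewise (Fisher's exact test, adjusted p = 0.00359). AATATT, a further control, had 23.0 and 17.8% in distal regions against 24.6 and 16.4% in all others, a difference that did not pass (Fisher's exact test, adjusted p = 0.775). Nor did it for AATTAA, with 44.0 and 33.0% against 37.1 and 26.6%, or for TAATTA (Fisher's exact test, adjusted p = 1 and 0.647). In all, 8 hexamers differed in their excess between distal and other regions, 7 of them made of A and T alone and the other AGGTGC. With the list of replicate 2 alone, and with a single region per gap, 0 passed, whereas with the list of replicate 1 alone 17 did.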

How the data were processed

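ChIP-seq peak lists of 2 biological replicates of Awh-GFP embryos, 0 to 24 h old, were analysed. The files hold peaks on dm6, per the labels. The aligner and the software that called the peaks were not given in the sources used here. For each peak the deposited lists give a signal, the authors' value of peak strength, and a score, a whole number that reached 1000 and was at least 830 in the thresholded lists. Signals were used to rank and describe peaks, and no read totals are given, so depth is unknown. The joint list was called by the authors on both replicates together, per the deposited read-me text, in a conservative version used here and a broader (optimal) one.

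Peaks on 6 chromosomes were merged where they overlapped, and took their summit and signal from the strongest peak. Each replicate's signal is that of its strongest candidate peak overlapping by 1 bp or more. All peak ends lay within the Release 6 chromosomes used, with Ensembl release 115 annotation (BDGP6.54). Unique sequence means 25-mers that occur a single time. Python 3.11.15, numpy 2.4.6, pandas 2.3.3 and scipy 1.17.1 were used. Tests were exact and 2-sided (binomial, Fisher, sign), with Benjamini-Hochberg adjustment within a family, a threshold of 0.05, and regions treated as independent. The hexamer scan was tested on simulated sequences. Wilson intervals (95%) cover the number of regions only.

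Regions named are the 20 strongest in both replicates' own lists, the farthest one and those beside the limit. Genes named are the 8 with the most distal regions, those flanking the 5 fullest gaps, and up to 4 of each list by signal, except that 1 gene and the gap beside it are not reported here. Hexamers named are those of lowest p in each direction. Other names, such as tsh, abd-A and the noncoding genes, come from flanking or overlapping annotation and were chosen after their values were seen. The members and the 10 gene lists were chosen with earlier results of these data known. Alternatives covered the list, replicates, strength, merging, distance limit, annotation, independence, window and flank.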

Additional observations from a re-analysis of the deposited data

Results flagged for a closer look

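A set of candidate peaks lay outside the list that the comparisons used. Of the candidate peaks behind the conservative list, 120 passed its score limit of 830 and yet overlapped no region of it, and 7 of these were distal by the same rule. What drew attention to them is that they carry a signal, with a median of 84.6 and a highest of 120, in data no comparison reports on. Merged, they made 6 regions, nearest to Hsp70Ba, UQCR-11, CG8517, CG33217 and CG14621. The reason for their absence from the list was not tested.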

How the results depend on the processing

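Of 408 recomputed values, 311 kept their direction and side of the threshold or, for counts, stayed within 1.5 times, 32 turned direction, 22 passed the threshold anew, 11 lost it and 32 counts moved by more. The lower density of distal regions (log2 ratio -0.99, alternatives -1.45 to -0.48), the excess in noncoding genes and the GC contrast with all other regions (-11.6 percentage points, alternatives -15.7 to -6.15) held under every alternative run for them, leaving aside the density with 1 region per gap (-2.15), which that setting lowers by construction. Unless a cause is plain from the setting (fewer regions, a wider rule), it was not tested. No paired analysis was possible because the replicates belong to a single group and no groups were compared.

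The number of distal regions was 252 in the stronger 50% of the list, 293 with a limit of 10000 bp, 291 with noncoding genes counted as genes and 232 with 1 region per gap. From a single replicate's list it was 289 to 384. In the main setting 4 chromosomes differed from their share, and over unique sequence 3 did. With the broader list and with unmerged peaks 5 did, chromosome 4 among them (exact binomial test, adjusted p = 0.0313 and 0.0454). With 1 region per gap, which removes the number of regions within a gap by construction, 0 differed. The log2 ratios were then 0.04 for 3L, 0.23 for 2L, -0.33 for 2R, -0.55 for X and 0.40 for 3R, which turned. The 3R ratio, -0.02, also turned to 0.04 (broader list), 0.03 (unmerged peaks), 0.11 (all genes), 0.02 (without the Awh gap) and 0.11 (replicate 2 alone), and was -0.26 with replicate 1 alone.

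Keeping the strongest region per gap raises signal by construction: the share above the median then exceeded that of near intergenic regions by 14.2 points, distant introns by 17.2 and all others by 11.9, and the share in both lists by 8.26, 11.7 and 5.66. From single replicates, signal against all others ran from -5.55 to 1.75 points. The share in both lists against all others passed with the broader list (-5.08), the stronger 50% (-7.76), a limit of 2500 bp (-6.21) and one single replicate (-6.46 to -3.51). Against distant introns it was -2.73 (stronger 50%), -1.15 (2500 bp), -0.0834 (all genes) and -1.67 to 0.611 (single replicates). Repeated windows against all others were at -0.0668 points with all genes and 0.229 with replicate 2 alone. With replicate 1 alone the value was 1.00 and passed the threshold. The upstream share was -6.65 points from that of the sequence in the stronger 50%.

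Of the fixed sites, 0 passed with the broader list, 10000 bp, all genes or without the Awh gap, 2 in the stronger 50%, with 2500 bp, windows of 50 bp or flanks at 2000 bp, 3 with windows of 200 bp and 1 to 2 from single replicates. TAATTA at summits minus flanks, 4.25 points, passed at 10.3 (stronger 50%), 6.76 (2500 bp), 6.37 (50 bp), 7.72 (flanks at 2000 bp), 8.49 (other side, an alternative added after seeing the data) and 9.90 (replicate 2 alone), but not at 7.96 (replicate 1 alone). GAGAG, 8.49 points, did not pass at 6.28 (broader list), 6.48 (10000 bp), 7.22 (all genes), 5.98 (flanks at 2000 bp, and other side) and 7.94 (without the Awh gap). It passed at 16.8 (1 per gap), 12.5 (windows of 200 bp), 12.3 (stronger 50%), 8.38 (unmerged), 6.34 (2500 bp) and 5.6 (windows of 50 bp). From single replicates it was 9.9 to 11.4. The log2 excess of TAATTA against distant introns, -0.25, turned to 0.28 (stronger 50%), 0.07 (unmerged), 0.00 (2500 bp), 0.11 (10000 bp), 0.13 (1 per gap), 0.30 (other side) and 0.06 to 0.41 (single replicates). Against all others, -0.37, it turned to 0.12 (stronger 50%), 0.01 (1 per gap), 0.17 (other side) and 0.06 to 0.15. Against near intergenic regions, -0.53, it turned to 0.00 (stronger 50%) and 0.17 (replicate 2 alone), and was -0.07 with replicate 1 alone. The GAGAG excess against near intergenic regions turned to -0.11 (2500 bp) and -0.05 (10000 bp). Against all others, 0.42, the GAGAG excess passed at 1.04 (1 per gap).

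ACAGTG before against behind the summit, 0.81 on the log2 scale, passed at 1.52 (stronger 50%), 0.92 (2500 bp), 1.40 (10000 bp) and 0.89 (without the Awh gap), and was 0.27 to 0.45 from single replicates. The ACAGTG pattern was already known from the whole list, so these values are descriptive. Hexamers higher at summits numbered 1 with the broader list, 0 with 1 region per gap, 3 with windows of 50 bp or the other flank, and 1 from each single replicate, and lower ones 0 in each of these but the other flank. Hexamers that differed from other regions numbered 20 with the broader list, 0 with 1 region per gap, 2 with windows of 50 bp and 0 to 17 from single replicates. The unique sequence, Awh gap and other-side settings, and the last count and the GC contrast, were added after seeing the data.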
